A study of Homo sapiens with 15 samples.

Results

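The transcripts of lysosomal hydrolases and of lysosomal membrane proteins were followed as a group of 34 genes among the 59608 genes in the table of normalized counts. The members were taken by gene symbol from a list of cathepsins, glycosidases, lipid hydrolases with their helper proteins, and proteins of the lysosomal membrane. All 34 symbols were in the table, and 33 of them passed the filter on low levels, which asked for an average of 10 normalized counts or more across the 15 libraries and which 13561 genes passed. The cells were MDA-MB-231, a human triple-negative breast cancer line, so the data describe 1 cell line of 1 genotype. Dishes in 2D culture received ZJ-101, a simplified synthetic analog of the marine macrolide superstolide A, at 0.5, 5, 50 or 500 nM for 6 h, and control dishes received 0.1% DMSO, the vehicle. Each of the 5 groups held 3 libraries of poly-A RNA, and the labels name those of the treated groups biological replicates.

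Lysosomes are acidic organelles in which soluble hydrolases break down proteins, glycans, lipids and nucleic acids. Most of these enzymes are made in the endoplasmic reticulum, receive mannose 6-phosphate in the Golgi apparatus and are carried to the lysosome by mannose 6-phosphate receptors. Heavily glycosylated membrane proteins line the inside of the lysosomal membrane, while channels, exchangers and cholesterol carriers move the products of digestion and set the ionic content of the lumen. Many lysosomal genes carry a palindromic element near their start that the transcription factors TFEB, TFE3 and MITF bind.

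The core of that element was searched in the 250 bases before 1 start of each gene, the first listed in the RefSeq promoter table for GRCh38.p14. This start need not be the outermost one. Among the genes with a match named below, those of LAMP1 and MCOLN1 are at the start of the annotated gene. Those of CTSA, GAA, CLCN7, CTSD, CTSF, CD63 and NEU1 lie inside the annotated gene. The letters searched were TCACGTGA, which read the same on both strands, and the E-box CACGTG, which lies inside them. Of the 34 members, 26 had an entry. The core was present in 4 of these 26 (15.4%), LAMP1, MCOLN1, CTSA and GAA, against 0.89% of the 27305 promoters searched and 1.72% of the 10029 promoters of tested genes. The E-box was present in 9 of the 26 (34.6%), these 4 together with CLCN7, CTSD, CTSF, CD63 and NEU1, against 6.49% of all promoters and 8.86% of those of tested genes. NEU1 was under the filter on low levels and so is not among the tested genes. Since lysosomal genes are known for this element, the shares describe the list and test nothing in these data. Copies of the core are shown in capitals for LAMP1 and MCOLN1, because their transcripts moved in opposite directions at 500 nM. The stretches are the last 100 bases before the annotated start, on the plus strand, at chr13:113297139-113297238 for LAMP1 and chr19:7522524-7522623 for MCOLN1.
LAMP1: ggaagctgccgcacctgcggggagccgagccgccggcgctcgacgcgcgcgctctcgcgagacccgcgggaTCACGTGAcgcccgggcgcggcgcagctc
MCOLN1: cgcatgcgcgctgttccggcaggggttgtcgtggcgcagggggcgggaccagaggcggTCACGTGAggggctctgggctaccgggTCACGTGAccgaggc
LAMP1 holds 1 copy of the core in this stretch, with its first base 29 bases before the start. MCOLN1 holds 2 copies, with their first bases 42 and 15 bases before the start. These matches are of letters only, and no binding was measured.

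Recovered reads on genes numbered 12415519 to 15284762 per library, and mitochondrial genes took 0.889% to 2.06% of them. The library of 0.5 nM replicate 2 stood apart, with a chi-square over its degrees of freedom of 11.1 and 16.5 against its replicates, where all other pairs within a group lay between 2.04 and 6.27. Without it, 3, 8, 10 and 21 members were called at 0.5, 5, 50 and 500 nM, against 2, 2, 7 and 20 with it, and each member called with it at these doses was also called without it. The share of all tested genes called without it was 1.14%, 4.59%, 9.41% and 22.8%, against 1.17%, 2.18%, 6.00% and 17.8% with it. The line's markers were high in every library, with VIM at 13433 to 18413, CD44 at 9275 to 12291 and AXL at 12148 to 14423 normalized counts. They were not constant, since CD44 fell and AXL rose at 50 and 500 nM (limma adjusted p under 0.05). The estrogen receptor gene ESR1 reached at most 4.3 and the progesterone receptor gene PGR at most 17.3, whereas ERBB2 lay at 1136 to 1328 and CDH1 at 107 to 206. CDH1 fell at 0.5, 5 and 500 nM by the same test. Of the luminal epithelium markers, KRT8 lay at 11198 to 13346 and KRT18 at 4032 to 5115, with EPCAM at 266 to 320 and GATA3 at 122 to 168. Because macrophages are rich in lysosomes, their markers were read beside the members. CD163 was listed at 0 in all 15 libraries, PTPRC reached at most 3.5 and CSF1R lay at 49.7 to 80.3 normalized counts. CD14 lay at 26.4 to 28.8 in DMSO and at 7.1 to 15.2 at 500 nM, and it fell at 500 nM (limma adjusted p = 0.0022), whereas CSF1R did not pass the test and PTPRC and CD163 were under the filter. The 4 macrophage markers summed to 77.1 to 102 normalized counts in DMSO and 64.2 to 67.8 at 500 nM, and the part of this difference in the lysosomal results was not tested.

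The members covered a wide range of levels. Per kilobase of canonical transcript, the mean level in DMSO was highest for CD63 with 6451 normalized counts, followed by PSAP with 4867, CTSZ with 3947 and CTSD with 3271. The lowest tested members were CTSS with 51.9, HEXA with 30.9 and CTSK with 10.2 normalized counts per kilobase. CTSK, a collagen-degrading cathepsin of osteoclasts, lay between 9.7 and 27.7 normalized counts over all libraries. NEU1, the lysosomal sialidase, was listed at 0 in all 15 libraries. Near-identical copies of NEU1 lie on 7 of the 261 alternate contigs of the reference, and whether these were in the authors' reference is not given in the sources used here, so the 0 is not read as absence of its RNA.

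At 500 nM, most of the hydrolases measured here were lower than in DMSO. Of the 7 membrane proteins, 3 rose and 3 fell by the test. In limma fits, 17 of the 33 tested members fell and 3 rose at an adjusted p under 0.05, with Benjamini-Hochberg adjustment over all tested genes. The differences are on the log2(normalized count + 1) scale, which understates those of low genes. Among all 13561 tested genes, 10.1% fell and 7.69% rose, so that 17.8% were called. The log2 fold changes of the members ran from -0.54 to 0.37 with a median of -0.20, and the median over all tested genes was 0.003. All 3 libraries at 500 nM lay below all 3 DMSO libraries for 23 of the 33 members, against 19.6% of tested genes, and above them for 3, against 18.9%. In these bulk libraries, fewer cells with a transcript and less transcript per cell cannot be told apart.

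**Figure D1:**
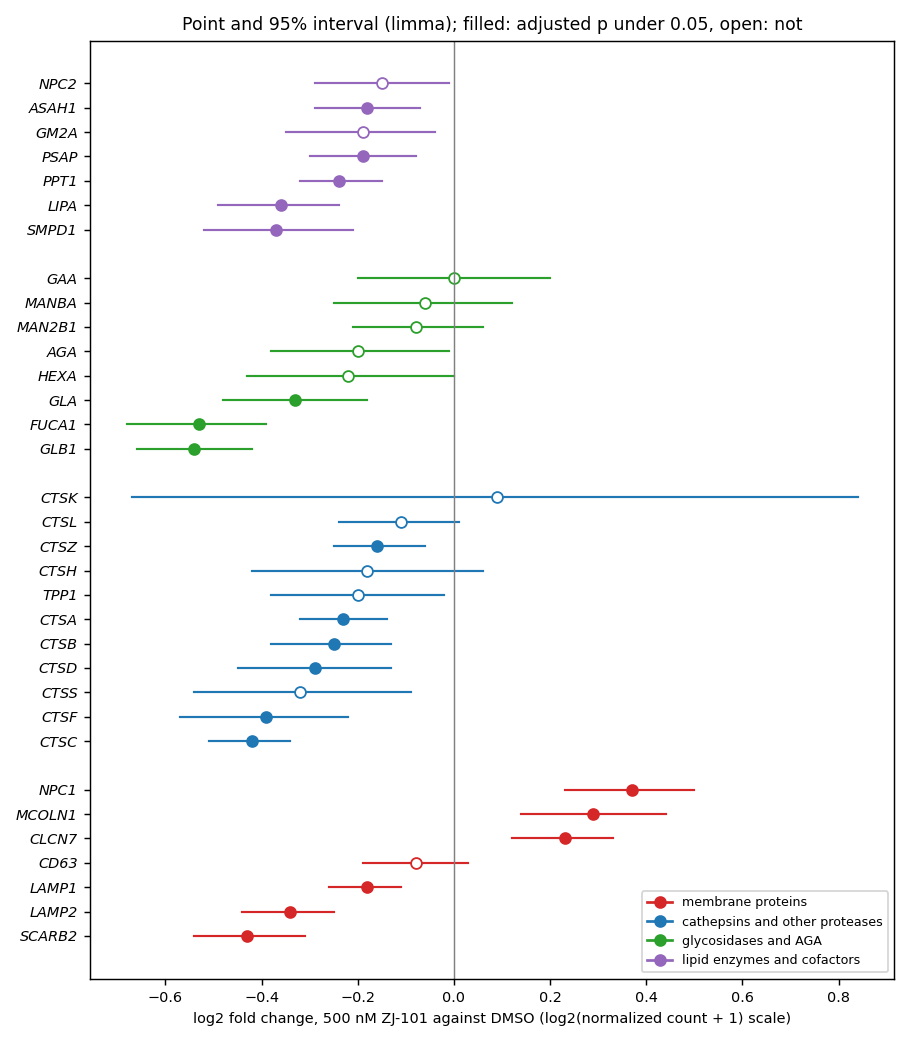
log2 fold change of each of the 33 tested members at 500 nM ZJ-101 against DMSO (horizontal axis, on the log2(normalized count + 1) scale), with its 95% interval from limma. Filled points passed the adjusted threshold, and colours give the 4 roles. GLB1 and FUCA1 lie lowest at -0.54 and -0.53, and NPC1, MCOLN1 and CLCN7 are the only filled points above 0, at 0.37, 0.29 and 0.23.

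Among the 7 membrane proteins, NPC1, MCOLN1 and CLCN7 rose at 500 nM, SCARB2, LAMP2 and LAMP1 fell, and CD63 did not pass the test. Called genes made up 85.7% of this role, against 17.8% of all tested genes. NPC1 (chromosome 18, 23506184 to 23586506, minus strand, GRCh38), which exports cholesterol from the lysosomal lumen, had 1657, 1601 and 1616 normalized counts in DMSO and 2164, 2045 and 2079 at 500 nM. In between it had 1734, 1403 and 1713 at 0.5 nM, 1611, 1605 and 1703 at 5 nM, and 1747, 1634 and 1827 at 50 nM. The 500 nM libraries thus lay above all 12 others, and the difference from DMSO was 0.37 ± 0.07 (SE, n = 3 per group) on the log2 scale, with a limma adjusted p of 5.2e-04. The difference between 500 and 50 nM was 0.27 (adjusted p = 0.033), and it missed the threshold when 50 nM replicate 1 or 2 or any 500 nM library was left out (adjusted p = 0.077 to 0.19).

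MCOLN1 (chromosome 19, 7522624 to 7534009, plus strand), the calcium-conducting mucolipin channel, had 334, 346 and 350 normalized counts in DMSO. It had 311, 355 and 344 at 0.5 nM, 368, 381 and 380 at 5 nM, 367, 433 and 398 at 50 nM, and 419, 417 and 425 at 500 nM. All libraries at 5, 50 and 500 nM were above the DMSO libraries, but only the difference at 500 nM passed the test (log2 0.29 ± 0.07, limma adjusted p = 0.0058).

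CLCN7 (chromosome 16, 1444934 to 1475077, minus strand), a chloride and proton exchanger of the lysosomal membrane, moved in both directions along the doses. It had 875, 809 and 803 normalized counts in DMSO, 698, 665 and 712 at 0.5 nM, and 782, 734 and 773 at 5 nM. At 50 nM it had 956, 976 and 966, and at 500 nM 958, 984 and 969. The libraries at 0.5 and 5 nM therefore lay below every DMSO library and those at 50 and 500 nM above every one. CLCN7 fell at 0.5 nM (log2 -0.26, limma adjusted p = 0.015), and rose at 50 nM (0.22, adjusted p = 0.0085) and at 500 nM (0.23 ± 0.05, adjusted p = 0.0028). The step from 5 to 50 nM was 0.34 (adjusted p = 2.7e-04), while the fall at 0.5 nM missed the threshold without DMSO replicate 1 (0.098) or 2 (0.054), and the rise at 50 nM missed it without DMSO replicate 2 (0.054) or 3 (0.055). Other genes on the opposite strand cover 15.7% of the CLCN7 exon bases, and the strand setting of the counting is not given in the sources used here.

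SCARB2 (chromosome 4, 76158737 to 76234536, minus strand), the receptor that brings beta-glucocerebrosidase to lysosomes, had 2786, 2794 and 2800 normalized counts in DMSO. It had 2540, 2245 and 2751 at 0.5 nM, 2605, 2595 and 2723 at 5 nM, 2389, 2436 and 2379 at 50 nM, and 2065, 2063 and 2098 at 500 nM. Every treated library was below the DMSO libraries, with the lowest 3 values at 500 nM, where the log2 difference was -0.43 ± 0.05 (limma adjusted p = 1.2e-05). SCARB2 also fell at 50 nM (-0.22, adjusted p = 0.018), a call that was lost without any 1 of the DMSO libraries or without 50 nM replicate 1 or 3 (adjusted p = 0.06 to 0.07).

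LAMP1 and LAMP2 are the most abundant glycoproteins of the lysosomal membrane. LAMP2 (chromosome X, 120426148 to 120469365, minus strand) had 2499, 2601 and 2631 normalized counts in DMSO, 2305, 2315 and 2402 at 0.5 nM, and 2384, 2286 and 2271 at 5 nM. It had 2250, 2513 and 2346 at 50 nM and 1942, 2082 and 2064 at 500 nM, where all 3 libraries lay below the other 12. The log2 difference at 500 nM was -0.34 ± 0.05 (limma adjusted p = 2.7e-05), and the step from 50 to 500 nM was -0.22 (adjusted p = 0.013), which was lost without 50 nM replicate 2 (0.094) or 500 nM replicate 1 (0.079).

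LAMP1 (chromosome 13, 113297239 to 113323672, plus strand) had 4161, 4142 and 4095 normalized counts in DMSO, 3720, 3617 and 3703 at 0.5 nM, and 3587, 3728 and 3691 at 5 nM. At 50 nM it had 4064, 4103 and 3971, and at 500 nM 3708, 3600 and 3618. The level at 50 nM overlapped that of DMSO, and the other 3 doses lay below both. LAMP1 fell at 0.5 nM (log2 -0.17, limma adjusted p = 0.027), at 5 nM (-0.17, adjusted p = 0.013) and at 500 nM (-0.18 ± 0.04, adjusted p = 0.0012), with -0.03 at 50 nM (adjusted p = 0.74). The steps from 5 to 50 nM (0.14, adjusted p = 0.024) and from 50 to 500 nM (-0.15, adjusted p = 0.028) also passed the test. Leaving out single libraries removed the calls at 0.5 nM (each DMSO library or 0.5 nM replicate 1), at 5 nM (DMSO replicate 1 or 2, or 5 nM replicate 1), from 5 to 50 nM (any 5 nM library, or 50 nM replicate 1 or 2) and from 50 to 500 nM (50 nM replicate 1 or 2, or any 500 nM library), with adjusted p of 0.051 to 0.13. The call at 500 nM was kept in all of them. CD63, a tetraspanin of late endosomes and lysosomes, had 6257 to 6782 normalized counts in DMSO and 6100 to 6358 at 500 nM, and the ranges overlapped (log2 -0.08, 95% interval -0.19 to 0.03).

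**Figure D2:**
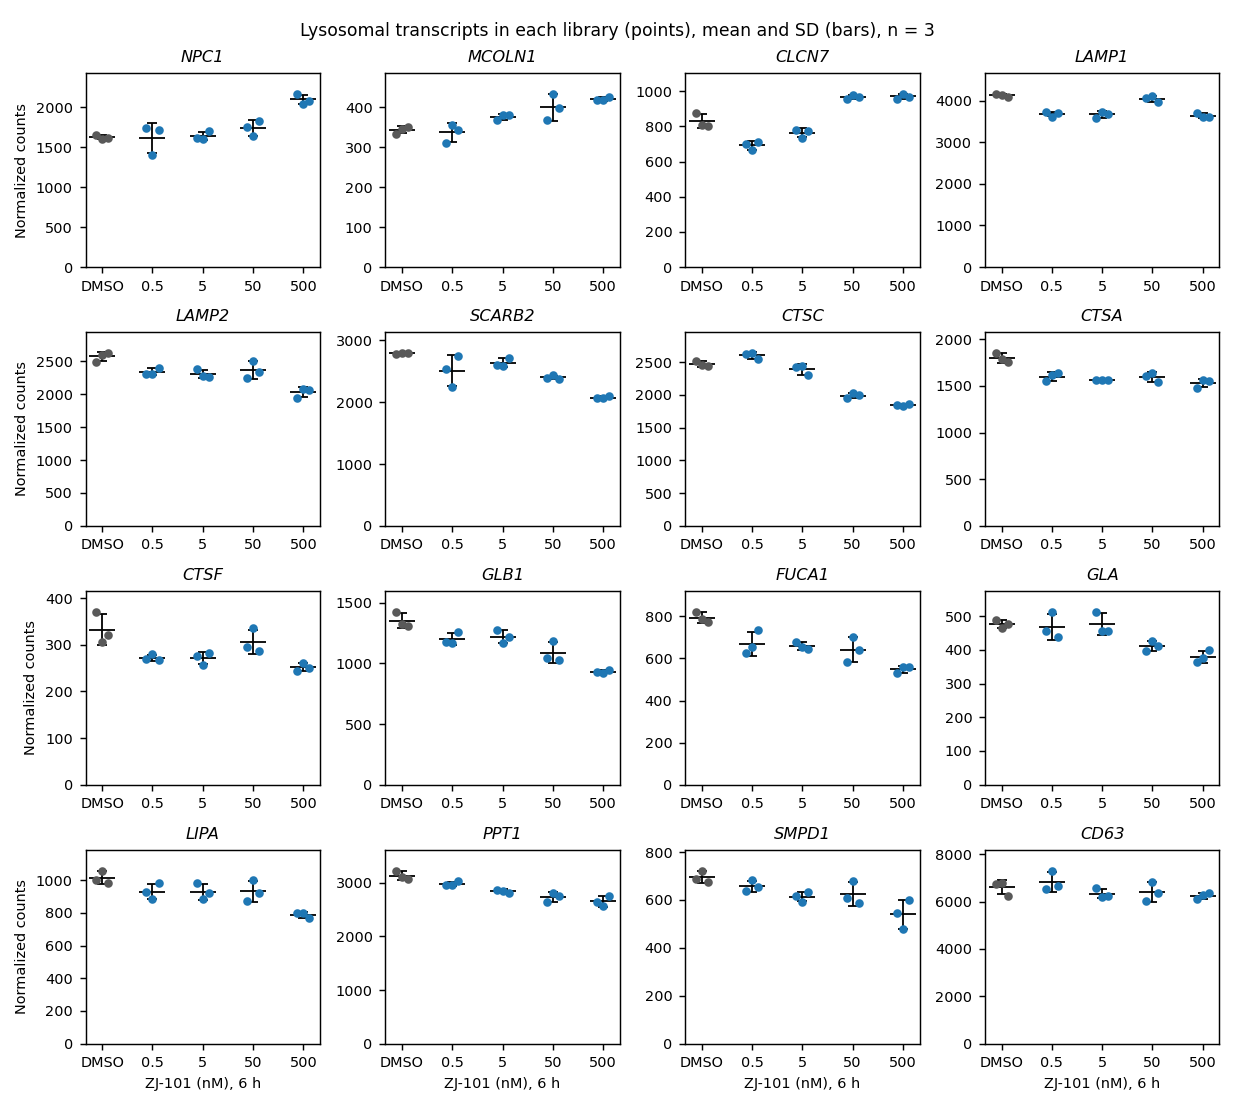
Normalized counts (vertical axes, from 0) of 16 members in each of the 15 libraries, by dose of ZJ-101 in nM, with mean and SD of 3 libraries as bars. NPC1 rises between 50 and 500 nM, CLCN7 lies below DMSO at 0.5 and 5 nM and above it at 50 and 500 nM, and GLB1, FUCA1, CTSC and SCARB2 have their lowest values at 500 nM.

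Of the 11 proteases, 6 fell at 500 nM and 0 rose, against 10.1% of all tested genes that fell and 7.69% that rose. The proteases had a median log2 fold change of -0.23. For 9 of the 11, all 500 nM libraries lay below DMSO, against 19.6% of all tested genes. By edgeR and by DESeq2, and at an unadjusted limma p under 0.05, the members that rose were again NPC1, MCOLN1 and CLCN7, so 0 proteases, 0 glycosidases and 0 lipid enzymes rose by any of them. CTSC, the dipeptidyl peptidase that activates granule serine proteases, fell most. CTSC (chromosome 11, 88265069 to 88359684, minus strand) had 2523, 2455 and 2446 normalized counts in DMSO and 2621, 2643 and 2546 at 0.5 nM. It had 2433, 2443 and 2298 at 5 nM, 1946, 2025 and 1992 at 50 nM, and 1846, 1827 and 1860 at 500 nM. The log2 step from 5 to 50 nM was -0.27 (limma adjusted p = 2.9e-04). The libraries of CTSC were also lower at 5 than at 0.5 nM and at 500 than at 50 nM, with log2 steps of -0.12 (adjusted p = 0.48) and -0.11 (0.21) that did not pass the test. The differences from DMSO were -0.32 at 50 nM (adjusted p = 2.4e-05) and -0.42 ± 0.04 at 500 nM (adjusted p = 2.4e-07).

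CTSA, the protective protein that stabilizes beta-galactosidase and the sialidase, was lower from the lowest dose on. It had 1854, 1785 and 1756 normalized counts in DMSO, 1548, 1614 and 1635 at 0.5 nM, and 1559, 1568 and 1564 at 5 nM. It had 1610, 1635 and 1538 at 50 nM and 1478, 1560 and 1552 at 500 nM, so that all 12 treated libraries lay below the DMSO libraries. The fall passed the limma test at 5 nM (log2 -0.20, adjusted p = 0.016), at 50 nM (-0.17, adjusted p = 0.017) and at 500 nM (-0.23 ± 0.04, adjusted p = 6.5e-04), with -0.17 at 0.5 nM (adjusted p = 0.067). Omitting DMSO replicate 1 or 2, or 5 nM replicate 1 or 2, removed the call at 5 nM, and omitting DMSO replicate 1 or 2, or 50 nM replicate 3, removed that at 50 nM (adjusted p between 0.055 and 0.1). Genes on the opposite strand cover 21.5% of the CTSA exon bases.

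CTSF, a cysteine cathepsin, had 371, 306 and 321 normalized counts in DMSO, 270, 280 and 268 at 0.5 nM, 275, 257 and 282 at 5 nM, 295, 335 and 286 at 50 nM, and 244, 261 and 251 at 500 nM. Its levels at 50 nM overlapped DMSO while those at the other doses lay below it, and it fell at 500 nM (log2 -0.39 ± 0.08, limma adjusted p = 0.002). CTSB, a broadly expressed cysteine cathepsin, had 5460, 5371 and 5077 in DMSO, 5196, 5253 and 5659 at 0.5 nM, 5084, 4962 and 5199 at 5 nM, and 4538, 4396 and 4403 at 500 nM (-0.25 ± 0.06, adjusted p = 0.005). At 50 nM the CTSB libraries were spread over 4184, 5172 and 4598 normalized counts, which overlapped DMSO. CTSD, the main aspartic protease of lysosomes, had 6996, 6599 and 6569 in DMSO, 5330, 6965 and 5809 at 0.5 nM, 5620, 6114 and 5795 at 5 nM, 7167, 6576 and 6004 at 50 nM, and 5368, 5311 and 5836 at 500 nM. Its libraries overlapped DMSO at 0.5 and 50 nM and lay below it at 5 and 500 nM, with a fall at 500 nM (-0.29 ± 0.08, adjusted p = 0.014). Omitting DMSO replicate 1 (adjusted p = 0.064), or 500 nM replicate 1 (0.051) or 2 (0.06), removed the CTSD call, and other genes share 27.3% of its exon bases on the same strand and 23.4% on the opposite one. CTSZ, a carboxypeptidase, had 5963, 6035 and 5786 in DMSO, 5267, 5600 and 5656 at 0.5 nM, 5424, 5327 and 5646 at 5 nM, 5566, 6254 and 5712 at 50 nM, and 5466, 5237 and 5268 at 500 nM. It too overlapped DMSO at 50 nM and lay below it at the other doses, and it fell at 500 nM (-0.16 ± 0.05, adjusted p = 0.025), with 31.7% of its exon bases under a gene on the opposite strand. Its call was gone when DMSO replicate 1 (adjusted p = 0.078) or 2 (0.1), or 500 nM replicate 2 (0.092) or 3 (0.082), was omitted.

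The remaining 5 proteases, CTSS, TPP1, CTSH, CTSL and CTSK, did not pass the test. CTSS, a cathepsin of antigen-presenting cells, lay just outside the threshold with 223, 203 and 187 normalized counts in DMSO and 165, 172 and 154 at 500 nM (log2 -0.32, limma adjusted p = 0.051). TPP1, a tripeptidyl peptidase, CTSH and CTSL had log2 differences of -0.20, -0.18 and -0.11, and the libraries of CTSH overlapped those of DMSO. For CTSK the 95% interval ran from -0.67 to 0.84, so at its level neither a fall nor a rise of the size seen in other members was detectable.

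The glycosidases strip sugars from glycoproteins and glycolipids, and AGA cuts the link between glycan and asparagine. Of these 9 genes 8 were tested, and GLB1, FUCA1 and GLA fell at 500 nM. They were 37.5% of the tested genes of this role, while 10.1% of all tested genes fell. GLB1 (chromosome 3, 32996609 to 33097202, minus strand), the lysosomal beta-galactosidase, had 1427, 1325 and 1308 normalized counts in DMSO, 1176, 1172 and 1257 at 0.5 nM, and 1275, 1169 and 1215 at 5 nM. It had 1048, 1188 and 1029 at 50 nM and 933, 918 and 946 at 500 nM, and all treated libraries lay below DMSO. GLB1 fell at 50 nM (log2 -0.32, limma adjusted p = 0.0015) and at 500 nM (-0.54 ± 0.06, adjusted p = 1.7e-06), a decrease of its level at 500 nM to 932 ± 13.8 from 1353 ± 64.4 normalized counts (SD, n = 3).

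FUCA1 (chromosome 1, 23845077 to 23868290, minus strand), the lysosomal fucosidase, had 822, 786 and 772 normalized counts in DMSO, 625, 652 and 733 at 0.5 nM, and 679, 654 and 643 at 5 nM. It had 581, 703 and 641 at 50 nM and 529, 557 and 557 at 500 nM. The 12 treated libraries again lay below the DMSO libraries, and the log2 difference was -0.31 at 50 nM (limma adjusted p = 0.0087) and -0.53 ± 0.07 at 500 nM (adjusted p = 1.7e-05). The call at 50 nM was lost without DMSO replicate 1 (0.053) or 50 nM replicate 1 (0.069), and FUCA1 at 5 nM lay just outside the threshold (-0.27, adjusted p = 0.051).

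GLA, the alpha-galactosidase that is deficient in Fabry disease, had 488, 466 and 477 normalized counts in DMSO, 456, 512 and 437 at 0.5 nM, 513, 457 and 456 at 5 nM, 395, 425 and 410 at 50 nM, and 363, 377 and 399 at 500 nM. It fell at 500 nM (log2 -0.33 ± 0.07, limma adjusted p = 0.0023), whereas at 0.5 and 5 nM its libraries overlapped DMSO. The other tested genes of this role were not called at 500 nM. HEXA, a subunit of beta-hexosaminidase, and AGA had log2 differences of -0.22 and -0.20, and MAN2B1 and MANBA, the lysosomal mannosidases, had -0.08 and -0.06. GAA, the glycogen-degrading alpha-glucosidase, had a log2 difference of 0.00 with a 95% interval of -0.20 to 0.20, which does not reach the changes of GLB1, FUCA1 and GLA.

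The 7 lipid enzymes and their helper proteins all had 500 nM libraries below the DMSO libraries, and 5 of them fell by the test. Of all tested genes, 19.6% had all 500 nM libraries below DMSO, and 10.1% fell by the test. SMPD1, the acid sphingomyelinase, had 686, 723 and 674 normalized counts in DMSO, 637, 682 and 654 at 0.5 nM, 617, 593 and 632 at 5 nM, 609, 681 and 586 at 50 nM, and 545, 478 and 598 at 500 nM. Its libraries overlapped DMSO at 0.5 and 50 nM, and it fell at 500 nM (log2 -0.37 ± 0.07, limma adjusted p = 0.0015). LIPA, the acid lipase that frees cholesterol from its esters, had 999, 1059 and 984 in DMSO, 928, 883 and 980 at 0.5 nM, 981, 882 and 920 at 5 nM, 871, 998 and 923 at 50 nM, and 800, 799 and 767 at 500 nM (-0.36 ± 0.06, adjusted p = 2.3e-04). The LIPA libraries at 50 nM overlapped DMSO, and the step from 50 to 500 nM was -0.24 (adjusted p = 0.041), which missed the threshold in 10 of the 15 fits that each left out 1 library (adjusted p up to 0.24 without 50 nM replicate 2).

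PPT1, the palmitoyl-protein thioesterase, had 3232, 3108 and 3069 normalized counts in DMSO, 2962, 2962 and 3028 at 0.5 nM, and 2873, 2856 and 2805 at 5 nM. It had 2641, 2813 and 2756 at 50 nM and 2641, 2568 and 2760 at 500 nM, with group means that were lower at each higher dose. PPT1 fell at 50 nM (log2 -0.20, limma adjusted p = 0.0045) and at 500 nM (-0.24 ± 0.04, adjusted p = 3.1e-04). PSAP, the precursor of the saposins that help hydrolases reach sphingolipids, had 13822, 13531 and 12769 in DMSO, 12005, 13075 and 13180 at 0.5 nM, 12697, 11806 and 12984 at 5 nM, 12591, 13398 and 12028 at 50 nM, and 11735, 11521 and 11843 at 500 nM. PSAP was below every DMSO library at 500 nM and overlapped them at the lower doses (500 nM, log2 -0.19 ± 0.05, adjusted p = 0.013). ASAH1, the acid ceramidase, had 1124, 1170 and 1128 in DMSO, 1046, 1087 and 1088 at 0.5 nM, 968, 1036 and 1001 at 5 nM, 972, 1090 and 1048 at 50 nM, and 954, 1035 and 1044 at 500 nM. All 12 treated libraries lay below DMSO for ASAH1, and the test was passed at 500 nM (log2 -0.18 ± 0.05, adjusted p = 0.025). Omitting DMSO replicate 1 (adjusted p = 0.07) or 2 (0.054), or 500 nM replicate 2 (0.052), removed the PSAP call. The ASAH1 call was gone when any DMSO library (0.052 to 0.1) or 500 nM replicate 1 (0.14) was omitted. GM2A, the GM2 ganglioside activator, and NPC2, the soluble cholesterol carrier that works with NPC1, had log2 differences of -0.19 (adjusted p = 0.086) and -0.15 (adjusted p = 0.13). NPC1 and NPC2 thus differed in sign at 500 nM, although only the change of NPC1 passed the test, and the difference between the 2 genes was not tested.

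Fewer members passed the test at the lower doses, and all comparisons with a dose share the same 3 DMSO libraries. At 0.5 nM 2 members fell, CLCN7 and LAMP1, and 0 rose by limma (0 at an unadjusted p under 0.05, 0 by edgeR and 0 by DESeq2), against 0.922% of tested genes that fell, 0.251% that rose and 1.17% called in all. At 5 nM 2 fell, CTSA and LAMP1, and 0 rose by limma (likewise 0 at an unadjusted p under 0.05, by edgeR and by DESeq2), against 1.71% that fell, 0.465% that rose and 2.18% called. At 50 nM 6 fell, CTSA, CTSC, FUCA1, GLB1, PPT1 and SCARB2, and CLCN7 rose, against 3.71% that fell, 2.29% that rose and 6.00% called. The log2 fold changes were nonetheless below 0 for 29 of the 33 members at 0.5 nM (52.4% of tested genes), 29 at 5 nM (50.1%), 27 at 50 nM (50.8%) and 28 at 500 nM (49.4%). Their medians were -0.09, -0.14, -0.12 and -0.20. All libraries of a dose lay below DMSO for 14 members at 0.5 nM (10.7% of tested genes), 20 at 5 nM (12.7%) and 10 at 50 nM (13.2%). They lay above it for 1 member at 0.5 nM, CTSC (7.43% of tested genes), 1 at 5 nM, MCOLN1 (10.5%), and 2 at 50 nM, CLCN7 and MCOLN1 (11.6%).

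**Figure D3:**
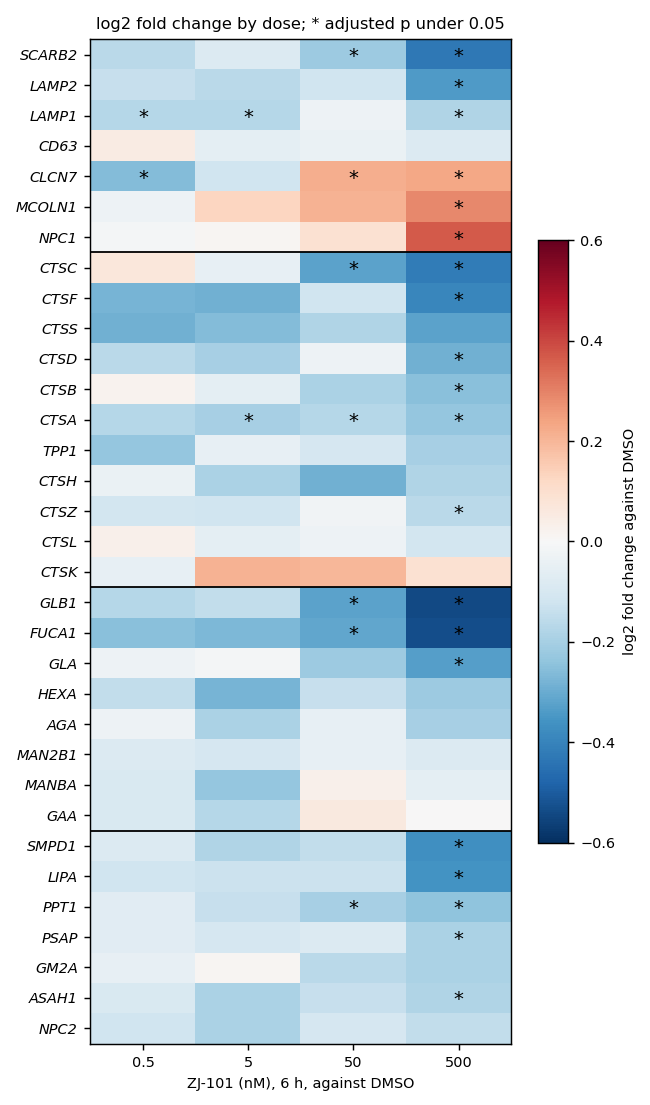
log2 fold change against DMSO (colour, blue below and red above 0) of the 33 tested members at 0.5, 5, 50 and 500 nM ZJ-101, in blocks by role, with an asterisk where the adjusted p was under 0.05. The asterisks number 2, 2, 7 and 20 from the lowest to the highest dose, and CLCN7 is below 0 at 0.5 nM (-0.26) and above 0 at 50 nM (0.22).

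Neighbouring doses were compared without the DMSO libraries in the difference. Between 0.5 and 5 nM 0 members were called by limma, edgeR or DESeq2. Of all tested genes, 0.0295% rose and 0.0885% fell by limma at an adjusted p under 0.05. At an unadjusted limma p under 0.05, 3 members were higher and 1 was lower, and the share of all tested genes at that threshold was not counted. Between 5 and 50 nM CLCN7 and LAMP1 rose and CTSC fell, against 2.62% and 2.39% of tested genes. Between 50 and 500 nM NPC1 rose and LAMP1, LAMP2, LIPA and SCARB2 fell, against 0.479% and 1.80%. The SCARB2 step of -0.21 had an adjusted p of 0.048 and was lost in 13 of the 15 fits that each left out 1 library. Along the rank of the dose, from DMSO to 500 nM, 13 members fell and 3 rose, against 9.33% and 8.23% of tested genes. The steepest slopes were those of GLB1 and CTSC, at -0.12 on the log2 scale per step of the dose rank, whose first step is DMSO to 0.5 nM (limma adjusted p = 8.0e-06 and 7.2e-06), and of FUCA1 at -0.11. The rising slopes were 0.09 for CLCN7 and 0.08 for MCOLN1 and NPC1. Of the falling slopes, those of ASAH1 (adjusted p = 0.033) and PSAP (0.031) were each lost in 5 of the 15 fits that left out 1 library, those without DMSO replicate 1 or 2 or 500 nM replicate 1 among them.

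As a share of all reads on genes, the 34 members together took 0.526%, 0.518% and 0.503% in the DMSO libraries. They took 0.471%, 0.494% and 0.496% at 0.5 nM, 0.476%, 0.465% and 0.478% at 5 nM, and 0.475%, 0.506% and 0.473% at 50 nM. At 500 nM they took 0.446%, 0.445% and 0.457%, below every other library. PSAP, CD63, CTSD and CTSZ held 45.8% to 49.1% of the members' reads, and the other 30 genes together took 0.270% to 0.278% of all reads in DMSO and 0.234% to 0.239% at 500 nM.

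**Figure D4:**
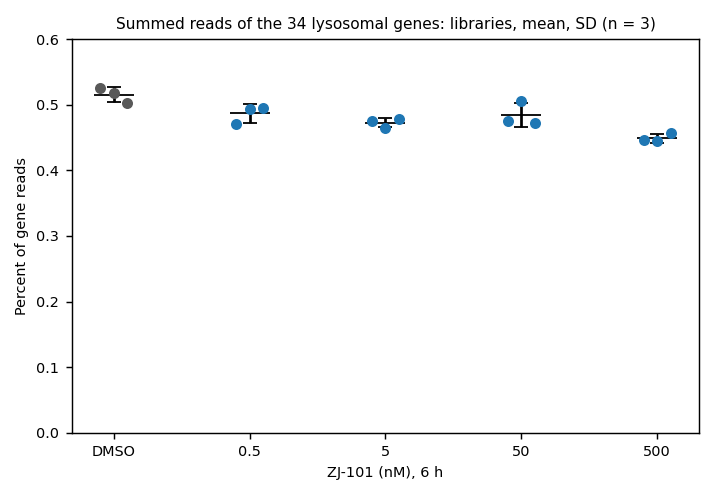
Summed reads of the 34 members as a percent of all reads on genes (vertical axis, from 0) in each library, by dose of ZJ-101 in nM, with mean and SD of 3 libraries. The group means are 0.516, 0.487, 0.473, 0.485 and 0.449 percent from DMSO to 500 nM, and the 500 nM libraries lie lowest.

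Other genes of the lysosome were read from lists that hold no member. Of 31 further lysosomal genes, 28 passed the filter, and 11 fell and 3 rose at 500 nM, with a median log2 fold change of -0.13. Called genes made up 50% of this list, against 17.8% of all tested genes. LGMN, the asparaginyl endopeptidase, had 1996, 1981 and 1890 normalized counts in DMSO and 1387, 1396 and 1363 at 500 nM (log2 -0.50, limma adjusted p = 7.9e-07). DNASE2, the acid DNase, fell by 0.56 on the log2 scale (adjusted p = 5.0e-04). The genes that fell also included the membrane proteins SLC17A5, the sialic acid exporter, and OSTM1, the partner subunit of CLCN7, with log2 differences of -0.35 (adjusted p = 4.1e-04) and -0.32 (4.0e-04). The genes that rose, TPCN2, CTNS and TMEM192, encode a 2-pore cation channel, the cystine exporter and another protein of the lysosomal membrane, with log2 differences of 0.56, 0.39 and 0.38.

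Of 18 genes that tag, sort or activate lysosomal enzymes, 4 fell and 1 rose at 500 nM (27.8% called, against 17.8% of all tested genes), with a median log2 fold change of -0.02. SORT1, the sortilin receptor, had 2360, 2343 and 2332 normalized counts in DMSO and 1452, 1379 and 1364 at 500 nM (log2 -0.75, limma adjusted p = 3.7e-07). NAGPA and GNPTAB, enzymes that build the mannose 6-phosphate tag, fell by 0.66 and 0.28 on the log2 scale. IGF2R, the large mannose 6-phosphate receptor, rose by 0.39 (adjusted p = 0.02), a call that was gone when DMSO replicate 1 (0.071) or 3 (0.059), or 500 nM replicate 1 (0.12), was omitted. SUMF1, which activates sulfatases, fell by 0.41 on the log2 scale (adjusted p = 0.0025).

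Of 20 genes for the TFEB family and for nutrient sensing at the lysosome, 2 rose and 1 fell at 500 nM, with a median of -0.04. These 3 are 15% of the list, near the 17.8% called among all tested genes. SLC38A9, an amino acid sensor of the lysosomal membrane, had 317, 326 and 313 normalized counts in DMSO and 432, 429 and 429 at 500 nM (log2 0.43, limma adjusted p = 3.8e-05). MITF rose by 0.24 (adjusted p = 0.0055). TFEB had 60.5, 52.6 and 57.8 normalized counts in DMSO and 44.8, 43.5 and 32.7 at 500 nM (log2 -0.50, adjusted p = 0.056), and TFE3 had a log2 difference of 0.04 (adjusted p = 0.57). Along the rank of the dose, TFEB fell at a limma adjusted p under 0.05. By that slope 20% of the list was called, against 17.6% of all tested genes. RRAGA, a small GTPase that recruits mTORC1, fell by 0.14 (adjusted p = 0.047), and this call was lost by edgeR, by DESeq2 and without any DMSO library (adjusted p up to 0.22 over all alternatives).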

How the data were processed

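RNA of MDA-MB-231 cells was measured in 15 libraries, 3 per group. Per the submitters' processing notes and the paper's methods, HISAT2 (hg38) and HTSeq gave counts per gene. The authors deposited signal values, which are the counts divided by DESeq2 size factors. The size factors, recovered here from each library's smallest step, ran from 0.916 to 1.13. Tool versions and the strand setting are not given in the sources used here. 1 line without a gene name was dropped. Division by each library's smallest step gave whole reads for 100.0% of values within 0.001. No replicate was a duplicate (chi-square over its degrees of freedom, 2.04 to 16.5, highest for the pairs of 0.5 nM replicate 2).

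limma 3.58.1 with a variance trend was fitted to log2(normalized count + 1) for genes with a mean of at least 10, with 5 groups in 1 fit (10 residual degrees of freedom), Benjamini-Hochberg adjustment over all tested genes and a threshold of 0.05. Members past it in any comparison are given in every library. The test was run on simulated data. The members, lists and alternatives were chosen with earlier results of these data known. edgeR 4.0.16 and DESeq2 1.42.0 on recovered reads were alternatives. Positions are from GENCODE on GRCh38, and copies were sought with minimap2 2.31-r1302 (at least 90% of a transcript at 99% identity). 1 gene of these lists is not reported here.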

Additional observations from a re-analysis of the deposited data

How the results depend on the processing

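No called member changed direction under any alternative, which were pseudocounts of 0.5 and 5, no filter or a mean of at least 50, other scalings, edgeR, DESeq2, a replicate block, a threshold of 0.1, the 6 libraries of a comparison alone and leaving out each library. Several of these could not change a direction. The filters, the replicate block, the threshold of 0.1 and the 6 libraries alone leave the log2 fold change as it was. For a comparison of 2 groups, so does leaving out a library of neither group. Leaving out 1 library gave 0 to 5 called members at 0.5 nM (2 in the full data), 0 to 8 at 5 nM (2), 4 to 10 at 50 nM (7), 16 to 21 at 500 nM (20), 0 to 0 between 0.5 and 5 nM, 2 to 5 between 5 and 50 nM (3), 0 to 7 between 50 and 500 nM (5) and 14 to 18 by the slope (16). The low-dose counts were 0 without DMSO replicate 1 or 2, and 0 at 5 nM without 5 nM replicate 1. The share of all tested genes called without DMSO replicate 1 or 2 was 0.14% and 0.229% at 0.5 nM, against 1.17% in the full data. At 5 nM it was 0.833% and 0.966%, and 1.04% without 5 nM replicate 1, against 2.18%. Called members rose to 5 at 0.5 nM without 0.5 nM replicate 3, where the share of all tested genes called rose from 1.17% to 2.88%. They rose to 8 at 5 nM and to 5 from 5 to 50 nM without 0.5 nM replicate 2, where the shares of all tested genes rose from 2.18% to 4.59% and from 5.01% to 8.33%. At 50 nM 4 members were called without DMSO replicate 1 or 2, where the share of all tested genes fell from 6.00% to 4.5% and 4.17%. From 50 to 500 nM the count was 0 without 50 nM replicate 2 or 500 nM replicate 1, and 1 without 500 nM replicate 2 or 3. In the same order, the share of all tested genes fell from 2.28% to 1.02%, 1.76%, 1.24% and 1.05%. Without a filter, 1 member was called at 0.5 nM, 1 at 5 nM and 1 between 50 and 500 nM. Of all genes tested without a filter, 0.342%, 0.648% and 0.794% were called in these comparisons. With only the 6 libraries of the comparison, 0 members were called at 0.5 nM and 9 at 5 nM, against 0.155% and 6.24% of all tested genes. A threshold of 0.1 gave 6 members at 5 nM, against 3.66% of all tested genes. The causes were not tested. At 500 nM 16 of the 20 calls held under each of the 26 alternatives, the exceptions being ASAH1, CTSD, CTSZ and PSAP. The threshold of 0.1, counted among these alternatives, could not remove a call. The replicate numbers did not pair the libraries, since same-numbered libraries had deviations that correlated at -0.09 to 0.1 over 30 pairs and 7 of 15 libraries were closest to their own number. The replicate block gave 2, 3, 7 and 20 called members from 0.5 to 500 nM, 0, 3 and 4 for the steps and 16 by the slope. The shares of all tested genes with the block were 1.2%, 2.32%, 6.39% and 18.5%, then 0.125%, 5.27% and 2.53%, and 17.5%. With 3 libraries a group and 12415519 to 15284762 reads per library, differences of the size seen in most members were not detectable for CTSK, whose 95% interval at 500 nM ran from -0.67 to 0.84.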
